A study of Homo sapiens with 6 samples.

Results

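The genes that move zinc across membranes and bind it in the cytosol were followed in C4-2 cells after androgen treatment. Members were the gene symbols of the ZnT family (SLC30A followed by a number), the ZIP family (SLC39A followed by a number) and the metallothioneins (MT1 followed by a letter, MT2A and MT3), together with MTF1. These rules found 36 of the 55765 gene symbols in the count tables, namely 10 ZnT genes, 14 ZIP genes, 11 metallothionein genes and MTF1. C4-2 is a castration-resistant prostate cancer cell line derived from LNCaP, cultured in DMEM with 5% FBS. Cultures received the solvent DMSO or 1 nM of the synthetic androgen R1881 (methyltrienolone), a supraphysiological androgen level (SAL), for 72 h. The study compared them to find transcripts controlled by SAL, and each condition has 3 libraries of total RNA, numbered 1 to 3. All 6 libraries come from 1 cell line, so the spread between them is not a spread between tumors.

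ZIP proteins carry zinc into the cytosol, from outside the cell or out of organelles, and ZnT proteins carry it in the opposite direction, out of the cell or into organelles. Metallothioneins are small cysteine-rich proteins that bind zinc and copper, and MTF1 is the zinc-sensing transcription factor that switches them on through metal response elements. Normal prostate epithelium accumulates zinc and secretes citrate to an unusual degree, and prostate cancer is known to lose this zinc.

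Between 7864471 and 12532355 reads per library were counted on genes, of which rRNA genes took from 11.9% to 27.8% and were removed. The authors counted reads per gene without regard to strand, and levels are given here as CPM, the count divided by the normalized library size and scaled to a common total. In bulk RNA, a lower level in every cell and fewer cells holding a transcript cannot be told apart. Libraries of the same number resembled each other across all genes, with correlations of their deviations from the group means of 0.89, 0.86 and 0.74. The replicate number was kept as a block in the test because the study used a paired test. A gene was called higher or lower when its adjusted p in edgeR was under 0.05. The study describes its RNA-seq replicates as independent repeats. With the block, differences in level between these repeats are taken out. The p-values therefore measure how far the change from DMSO to SAL varies between same-numbered pairs within the cell line. All 8 luminal prostate markers were detected, 5 of them called higher. This is 62.5% called, against 20.8% of all genes tested. KLK3, the gene of prostate-specific antigen, had 800 ± 347 CPM with DMSO and 1809 ± 630 with SAL (mean ± SD, n = 3). KRT5 of basal epithelium, PTPRC and CD3E of immune cells and CDH5 of endothelium had 0 counts in every library. KRT14 had at most 3 counts, TP63 at most 1 and CD68 1 to 4. Of the fibroblast markers, COL1A1 had 14 to 88 counts, COL3A1 0 to 6 and COL1A2 0 in every library. VWF of endothelium had 4 to 35.

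Of the 36 members, 20 had enough counts to be tested. SAL raised 5 of them and lowered 3, and 12 did not pass the threshold. Over all 16835 genes tested, 20.8% were called, 11.5% higher and 9.37% lower, against 8 of 20 (40%) among the members. The median log2 fold change of the members was 0.02, next to 0.00 over all genes. The genes that rose were SLC39A10, SLC39A7, SLC39A11 and SLC39A1 of the ZIP family and SLC30A7 of the ZnT family, and those that fell were SLC30A10 and SLC30A5 of the ZnT family and SLC39A8 of the ZIP family. The 3 pairs of libraries moved in 1 direction for 14 of the 20, 7 upward and 7 downward, where 51.2% of all genes did so. With DESeq2, 4 members were called higher and 2 lower (13.3% of all genes called). Without replicate 3, only SLC39A10 and SLC30A10 passed, when 7.26% of all genes did.

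**Figure D1:**
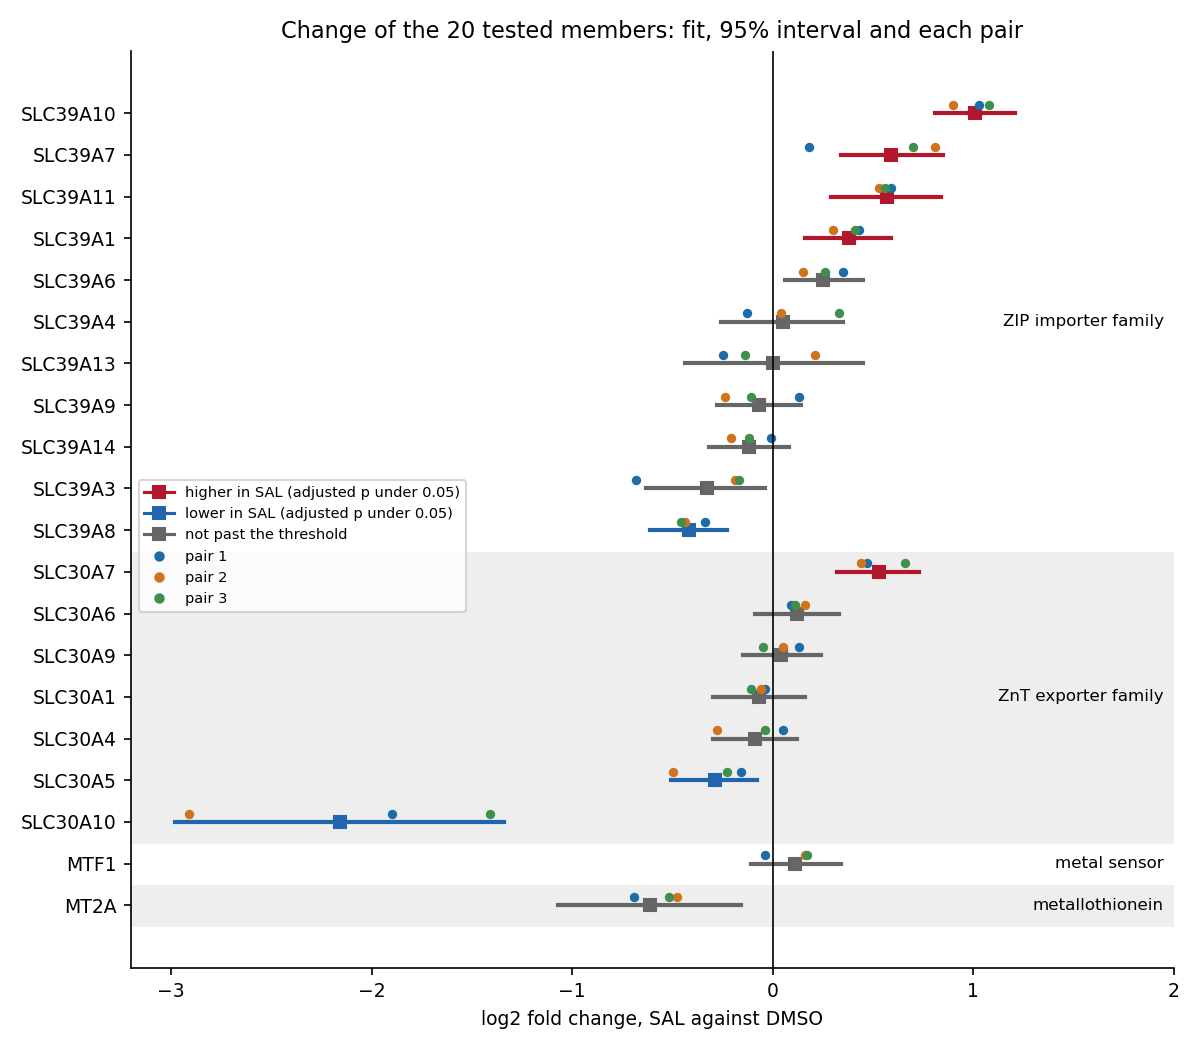
Change of each tested member under SAL, as log2 fold change on the horizontal axis (squares, with 95% intervals as lines) and as the change within each same-numbered pair (small circles), with family members grouped and red and blue marking genes called higher and lower. SLC39A10 lies farthest to the right at 1.01 and SLC30A10 farthest to the left at -2.16, and the pair points of each called gene lie on 1 side of 0.

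The regions upstream of the transcription starts were read first for the metal response element core, spelled TGCACNC or TGCGCNC and searched on both strands. RefSeq gives 35 start sites for 26 of the 36 members, and the 250 bases before each start were searched. Shown here are the 2 metallothioneins with the most counts and a listed start, MT2A (chr16:56642246-56642495) and MT1X (chr16:56716132-56716381), the metallothionein with the most matches, MT1H (chr16:56703476-56703725), and the plasma membrane exporter SLC30A1 (chr1:211752504-211752753, minus strand), which is known as a target of MTF1. Positions are exact matches of the RefSeq sequences (GRCh38.p14 table) in GRCh37, the assembly of hg19, and the cores are in capitals, on either strand.
MT2A: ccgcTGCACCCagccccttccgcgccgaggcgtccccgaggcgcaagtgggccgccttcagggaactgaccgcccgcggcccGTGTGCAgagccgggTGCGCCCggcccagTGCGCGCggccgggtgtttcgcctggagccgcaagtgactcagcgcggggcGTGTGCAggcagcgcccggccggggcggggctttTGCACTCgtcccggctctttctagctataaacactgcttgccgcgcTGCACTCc
MT1X: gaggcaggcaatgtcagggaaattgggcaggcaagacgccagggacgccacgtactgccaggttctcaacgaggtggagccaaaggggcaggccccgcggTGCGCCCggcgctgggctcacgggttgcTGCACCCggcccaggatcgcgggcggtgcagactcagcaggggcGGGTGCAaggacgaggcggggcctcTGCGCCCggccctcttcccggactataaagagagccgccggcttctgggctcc
MT1H: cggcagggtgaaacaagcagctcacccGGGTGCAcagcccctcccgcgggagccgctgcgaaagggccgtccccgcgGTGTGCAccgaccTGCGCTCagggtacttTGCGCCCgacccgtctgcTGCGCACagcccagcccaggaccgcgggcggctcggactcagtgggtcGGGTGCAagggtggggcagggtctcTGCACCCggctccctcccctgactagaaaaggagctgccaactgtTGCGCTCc
SLC30A1: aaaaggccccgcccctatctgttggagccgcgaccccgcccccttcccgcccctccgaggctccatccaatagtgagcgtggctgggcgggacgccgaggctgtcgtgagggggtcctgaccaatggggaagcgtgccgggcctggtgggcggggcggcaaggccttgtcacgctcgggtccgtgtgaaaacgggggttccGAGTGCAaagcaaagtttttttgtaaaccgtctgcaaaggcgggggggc

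Matches on the 2 strands were counted each and may overlap. MT2A had 7 cores, MT1X 4, MT1H 8 and SLC30A1 1, and MT1B, whose start was also listed, had 3. All 4 metallothionein starts thus held 3 or more, which 1.58% of 35116 promoters did. Of the other member starts, only that of the ZnT gene SLC30A2 did so, with 3. At least 1 core was found before 15 of the 35 member starts, against 24.8% of all promoters. Among the 8 genes that SAL changed, which have 13 listed starts, 2 starts held a core, 1 each of SLC39A1 and SLC39A8, and neither held more than 1. Of the 4 metallothioneins, only MT2A had enough counts to be tested, and MT1B and MT1H had 0 counts.

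The same windows were searched for AGAACA, a half-site of the androgen response element, on both strands. It was found before 3 of the 13 starts of the changed genes, those of SLC30A5, SLC39A1 and SLC39A11, and before no other member start. Over all members this is 3 of 35 starts, against 12.4% of all promoters. SLC30A5 was called lower and SLC39A1 and SLC39A11 higher, and a link between the half-site and the change was not tested. No member window held both motifs. For SLC30A5 (chr5:68389742-68389787) and SLC39A11 (chr17:71088947-71088992, minus strand), the half-site with its flanks is shown because these are the changed genes whose match lies outside exons. The capitals mark the half-site, which lies on the opposite strand and reads TGTTCT here.
SLC30A5: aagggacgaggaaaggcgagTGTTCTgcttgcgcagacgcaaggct
SLC39A11: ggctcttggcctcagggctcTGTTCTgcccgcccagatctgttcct

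Levels of different genes were compared per kb of exon. This length joins the exons of all annotated isoforms and can exceed that of the transcript expressed, so the order of genes depends on it. In DMSO, SLC30A4, the vesicular zinc transporter that loads zinc into secretory vesicles, was highest at 125 ± 17.9 CPM per kb, and SLC39A6 (ZIP6) followed at 95.2 ± 23.4 (SD, n = 3). Their libraries overlapped, at 105 to 139 for SLC30A4 and 68.4 to 112 for SLC39A6. SLC39A8 came next at 42.4 ± 6.78 CPM per kb, with every DMSO library below every SLC39A6 library. That gap rests on exon lengths of 8482 bases for SLC39A8 and 3683 for SLC39A6. In CPM without the length, their DMSO libraries overlapped, at 403, 295 and 383 for SLC39A8 and 412, 252 and 388 for SLC39A6. SLC39A14 at 29.2 ± 15.8, SLC39A9 at 25.6 ± 3.36, SLC30A5 at 24.1 ± 3.05 and SLC30A9 at 21.8 ± 8.19 had overlapping ranges and did not differ from one another beyond their spread. The range of SLC39A14 also overlapped that of SLC39A8. SLC39A10 was at 12.9 ± 3.98 CPM per kb in DMSO and 26.3 ± 9.26 in SAL. In SAL the ranges of SLC39A14, SLC39A10, SLC39A7, SLC39A9 and SLC30A9 overlapped, and their order is not resolved beyond that spread.

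**Figure D2:**
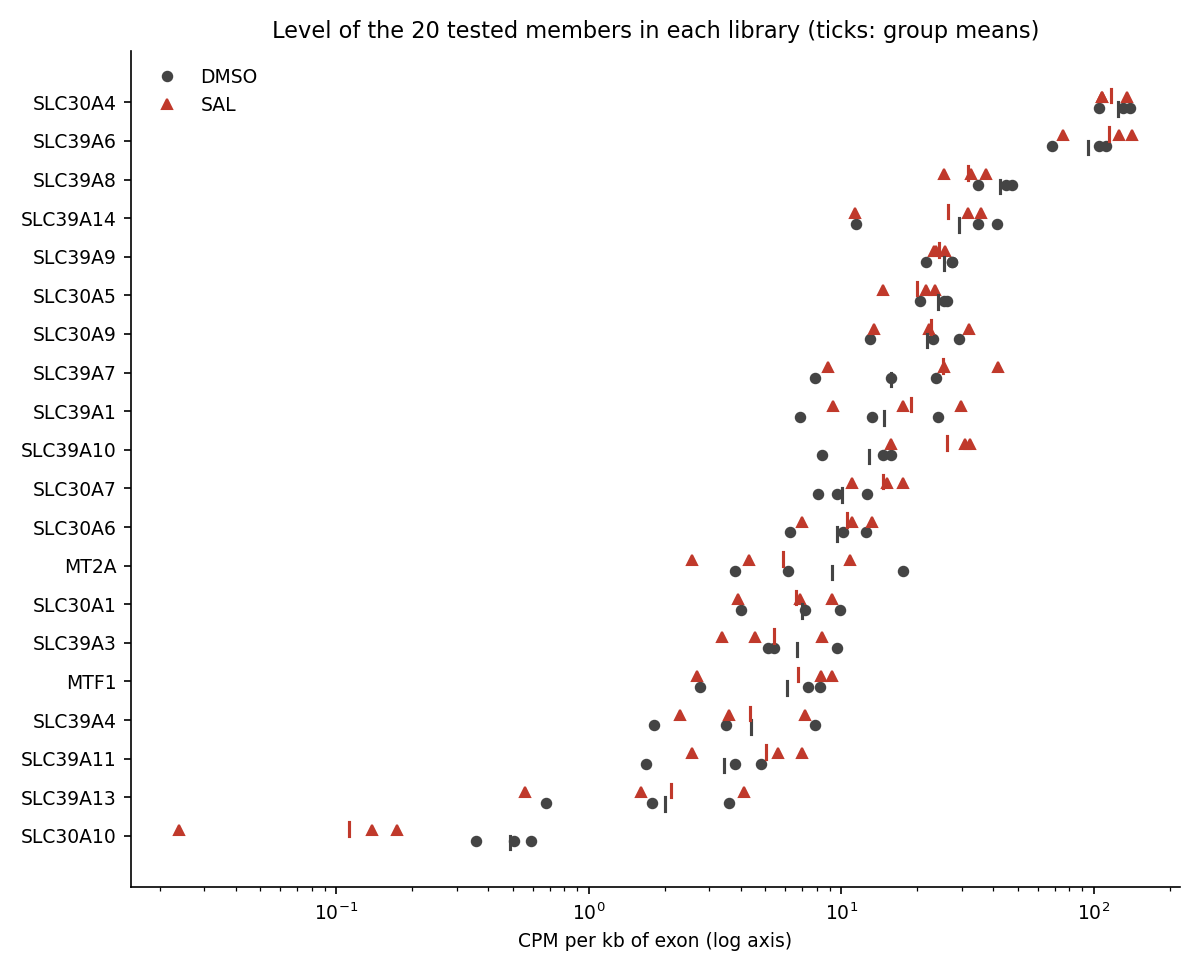
Level of the 20 tested members in each library, in CPM per kb of exon on a log axis, with DMSO libraries as dark grey circles, SAL libraries as red triangles and group means as vertical ticks. SLC30A4 and SLC39A6 stand above the other members in both conditions, and SLC30A10, the lowest, is the member whose groups do not overlap.

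In the ZIP family (median log2 fold change 0.05), 11 of 14 genes were tested, with 4 called higher and 1 lower. This is 45.5% called, against 20.8% over all genes. SLC39A10 (chr2:196440701-196602426, plus strand, GRCh37) encodes ZIP10, a plasma membrane importer that pairs with ZIP6. It was at 109, 58.0 and 101 CPM in DMSO replicates 1, 2 and 3 and at 224, 108 and 214 in the SAL replicates. Each SAL library was close to double its DMSO partner, and the groups overlapped because both libraries of replicate 2 were low. The log2 fold change was 1.01 (standard error, SE, 0.09, 95% interval 0.81 to 1.21, adjusted p = 1.63e-06), and the pairs gave 1.03, 0.90 and 1.08. Its partner SLC39A6 was at 412, 252 and 388 CPM in DMSO and at 524, 279 and 464 in SAL. The value for SLC39A6, 0.25 (95% interval 0.06 to 0.45, adjusted p = 0.0624), was upward in all 3 pairs and did not pass the threshold. Without the filter on low counts it did (adjusted p = 0.034). It passed in no other alternative, with an adjusted p of 0.162 with DESeq2 and 0.492 without replicate 3.

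SLC39A7 (chr6:33168082-33172216) encodes ZIP7, which releases zinc from the endoplasmic reticulum, and SLC39A11 (chr17:70642088-71088851, minus strand) encodes ZIP11, a Golgi and nuclear zinc transporter. The levels of SLC39A7 were 31.5, 95.3 and 62.7 CPM in DMSO and 35.6, 167 and 102 in SAL. Its rise was uneven, at 0.18, 0.81 and 0.70 on the log2 scale in the pairs, with a fitted value of 0.59 (SE 0.12, adjusted p = 0.00236). SLC39A11, with 9.42, 26.9 and 21.1 CPM in DMSO and 14.3, 39.0 and 31.3 in SAL, rose evenly, by 0.59, 0.53 and 0.56 in the pairs. Its fitted log2 fold change was 0.57 (SE 0.13, adjusted p = 0.00581). The other ZIP genes of the endoplasmic reticulum and Golgi, SLC39A9 and SLC39A13, had values of -0.07 and 0.00, with 95% intervals of -0.28 to 0.14 and -0.44 to 0.45. The exons of SLC39A7 share 9.02% of their length with RXRB on the other strand, which had -0.36 (adjusted p = 0.113). Without replicate 3, neither SLC39A7 (adjusted p = 0.113) nor SLC39A11 (adjusted p = 0.114) passed the threshold.

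SLC39A1 (chr1:153931575-153940660, minus strand) encodes ZIP1, the importer most often linked to zinc uptake by prostate epithelium. It was at 23.3, 81.9 and 44.8 CPM in DMSO and at 31.4, 101 and 59.8 in SAL, higher in SAL in every pair, while the groups overlapped widely. SAL raised it by 0.38 on the log2 scale (SE 0.10, adjusted p = 0.0146). It did not pass the threshold with DESeq2 (adjusted p = 0.0872) or without replicate 3 (adjusted p = 0.241). Of its exon length, 8.26% is shared with CREB3L4 on the other strand, a gene whose own log2 fold change was 1.31. Without strand, reads that fit both genes cannot be assigned. Where the authors' annotation holds the overlap, their counting tallies such reads as ambiguous and adds them to neither gene. In the newer annotation used here, 60.8% of the SLC39A1 exon length is also shared with a protein-coding gene of the same strand. Its close relative SLC39A3 was at 23.9, 42.5 and 22.7 CPM in DMSO and 14.9, 37.2 and 20.2 in SAL, a value of -0.33 (95% interval -0.63 to -0.04, adjusted p = 0.102).

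The ZIP gene that fell was SLC39A8 (chr4:103172237-103352415, minus strand), which encodes ZIP8, an importer of zinc, manganese and other divalent metals. It was at 403, 295 and 383 CPM in DMSO and fell to 317, 217 and 277 in SAL. The fall was similar in the pairs, by 0.34, 0.44 and 0.46 on the log2 scale, and the fitted value was -0.42 (SE 0.09, adjusted p = 0.00343). Without replicate 3 the adjusted p was 0.207. SLC39A14 (ZIP14), which carries the same metals, was at 78.8, 288 and 240 CPM in DMSO and 78.4, 248 and 220 in SAL. Its value was -0.12 (95% interval -0.32 to 0.08, adjusted p = 0.417), and that of SLC39A4, the intestinal importer, was 0.05 (95% interval -0.26 to 0.35, adjusted p = 0.864). SLC39A2, SLC39A5 and SLC39A12 had at most 7 counts in any library and were not tested.

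**Figure D3:**
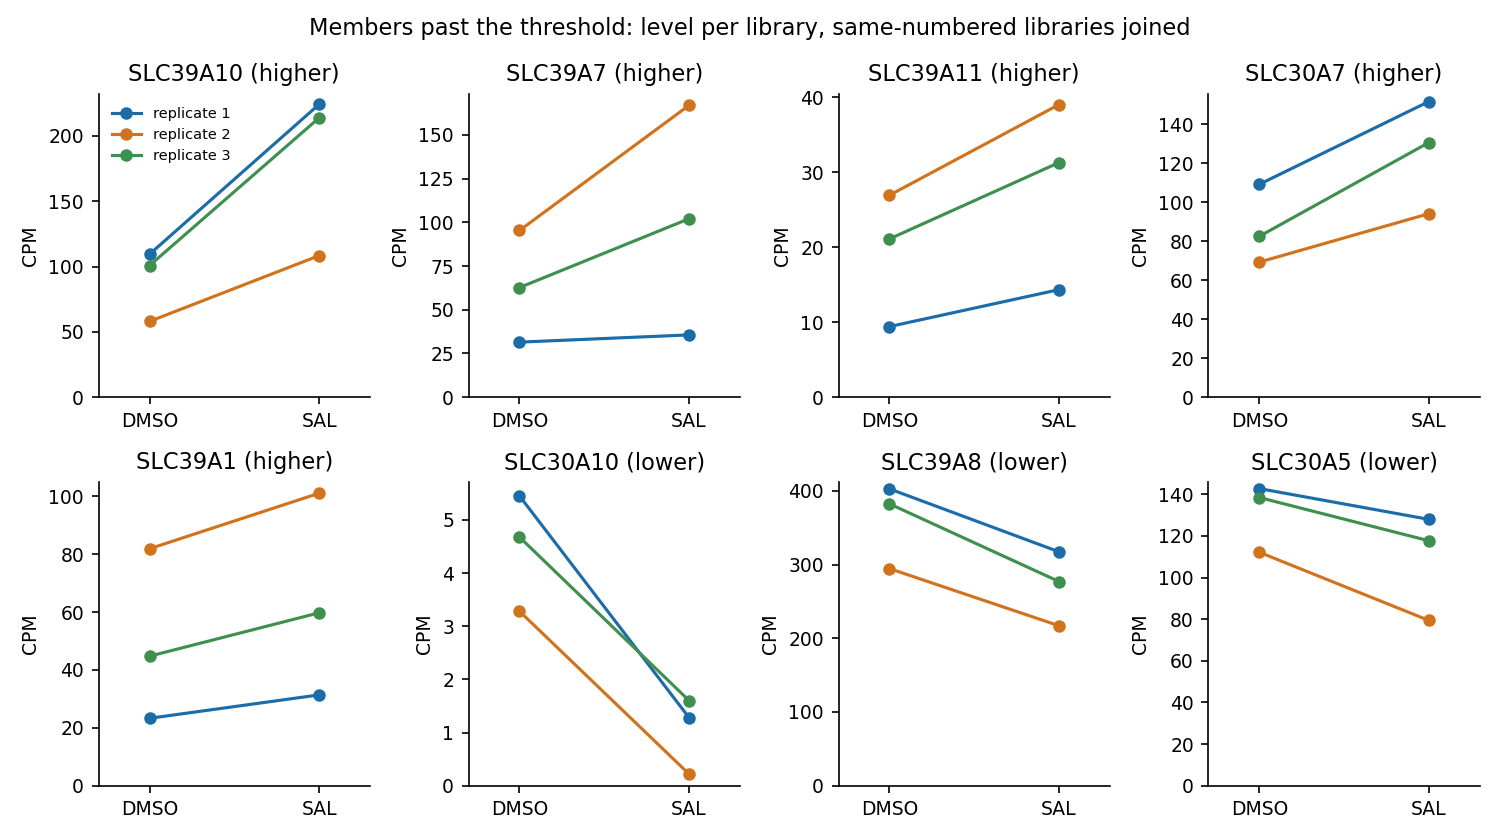
Level in CPM of the 8 members past the threshold, 1 panel per gene with its own linear axis from 0, and lines joining the DMSO and SAL libraries of the same replicate number. Every line of SLC39A10, SLC39A7, SLC39A11, SLC30A7 and SLC39A1 rises and every line of SLC30A10, SLC39A8 and SLC30A5 falls, while the height of the lines differs between replicate numbers.

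In the ZnT family (median log2 fold change -0.07), 7 of 10 genes were tested, with 1 called higher and 2 lower. This is 42.9% called, against 20.8% over all genes. The largest fall of any member was that of SLC30A10 (chr1:219858769-220132360, minus strand), a plasma membrane exporter known chiefly for manganese. Its counts were 44, 24 and 35 under DMSO (replicates 1 to 3) and 10, 2 and 13 under SAL, or 5.45, 3.28 and 4.68 CPM against 1.28, 0.219 and 1.60. Every SAL library was below every DMSO library, as for 3.73% of all genes tested. The log2 fold change was -2.16 (SE 0.38, 95% interval -2.98 to -1.34, adjusted p = 0.000811), so that SAL left 22.3% of the DMSO level. The low counts make its size less certain than its direction, with values of -1.82 without replicate 2 and -2.62 without replicate 3, both past the threshold. Of the 3 members that carry manganese, SLC30A10 and SLC39A8 were called lower, where 9.37% of all genes were, and SLC39A14 was not, with pair values of -0.01, -0.21 and -0.12.

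SLC30A5, SLC30A6 and SLC30A7 bring zinc into the early secretory pathway, where it is built into enzymes such as alkaline phosphatases. SLC30A7 lies at chr1:101361632-101447313 and SLC30A5 at chr5:68389818-68426896, both on the plus strand. ZnT5 and ZnT6 act as a heterodimer and ZnT7 as a homodimer. SLC30A7 was at 109, 69.3 and 82.6 CPM in DMSO and rose to 152, 94.2 and 131 in SAL, by 0.53 on the log2 scale (SE 0.10, adjusted p = 0.000993). Without replicate 3, its adjusted p was 0.113. SLC30A5, at 143, 112 and 138 CPM in DMSO and 128, 79.4 and 118 in SAL, was lower in all pairs, with a fitted value of -0.29 (SE 0.10, adjusted p = 0.0466). Of its exon length, 9.78% overlaps a lncRNA on the other strand. This call was close to the threshold and was lost with DESeq2 (adjusted p = 0.131), without robust estimation (adjusted p = 0.0534), without replicate 2 (adjusted p = 0.168) and without replicate 3 (adjusted p = 0.317). SLC30A6 was at 67.6, 33.9 and 55.1 CPM in DMSO and 72.1, 37.9 and 59.6 in SAL, a value of 0.12 (95% interval -0.09 to 0.33, adjusted p = 0.442).

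The remaining tested ZnT genes did not pass the test. SLC30A4 was at 840, 1055 and 1113 CPM in DMSO and at 870, 866 and 1081 in SAL, with a log2 fold change of -0.09 (95% interval -0.30 to 0.12). SLC30A1, the zinc exporter of the plasma membrane, was at 23.7, 42.3 and 58.1 CPM in DMSO and 23.1, 40.6 and 54.0 in SAL, with -0.07 (95% interval -0.30 to 0.16). SLC30A9, a mitochondrial zinc transporter, had 0.04 (95% interval -0.15 to 0.24). For all 3, the interval ends at 0.30 or less in size on the log2 scale. The vesicular transporters SLC30A2 of mammary gland, SLC30A3 of synapses and SLC30A8 of pancreatic beta cells had at most 7 counts in any library and were not tested.

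Metallothionein counts were low in C4-2 cells and, apart from 2 counts of MT3, came from 3 of the 11 genes. Counts of MT2A (chr16:56642496-56643409, plus strand) were 130, 41 and 26 under DMSO (replicates 1 to 3) and 77, 36 and 19 under SAL, or 16.1, 5.61 and 3.47 CPM against 9.86, 3.95 and 2.34. It was lower in SAL in every pair, by 0.69, 0.48 and 0.52 on the log2 scale, and its fitted value of -0.61 (SE 0.21, 95% interval -1.07 to -0.16, adjusted p = 0.0542) lay just outside the threshold. MT1X had 86, 6 and 5 counts in DMSO and 65, 9 and 10 in SAL, and MT1F had 34, 4 and 5 in DMSO and 33, 3 and 6 in SAL. Both failed the low-count filter, with few counts outside replicate 1, and neither separated the conditions. Fitted without that filter, both had a log2 fold change of -0.06 (SE 0.33 for MT1X and 0.45 for MT1F). Both libraries of replicate 1 held far more of these transcripts than the other 4. Summed over the MT1 genes and MT2A, they had 31.0 and 22.4 CPM in DMSO and SAL, whereas the other libraries had from 4.31 to 6.97. Fitted as this sum, the log2 fold change was -0.38 (adjusted p = 0.157).

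MT1A, MT1B, MT1E, MT1G, MT1H, MT1L and MT1M had 0 counts in all 6 libraries, which allows up to 0.41 CPM in the library with the highest limit, and MT3, the brain metallothionein, had at most 1. These limits cover counting error only. The genes lie on chromosome 16 in 1 cluster, MT3 at -19.5 kb and MT1X at 73.9 kb from the start of MT2A, and they are near copies of each other, so reads that matched several were not counted. Of the 32-base windows in their exons, the share found only once in the GRCh37 genome was 58.1% for MT1M, 77.0% for MT1E, 87.4% for MT2A and 94.4% for MT1X. With 64-base windows, the lowest share was 89.1%, for MT1E. Copies with mismatches were not searched. MT1L is listed as a pseudogene whose whole exon length overlaps a lncRNA of the same strand, and 18.6% of the MT1X exon length overlaps another.

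**Figure D4:**
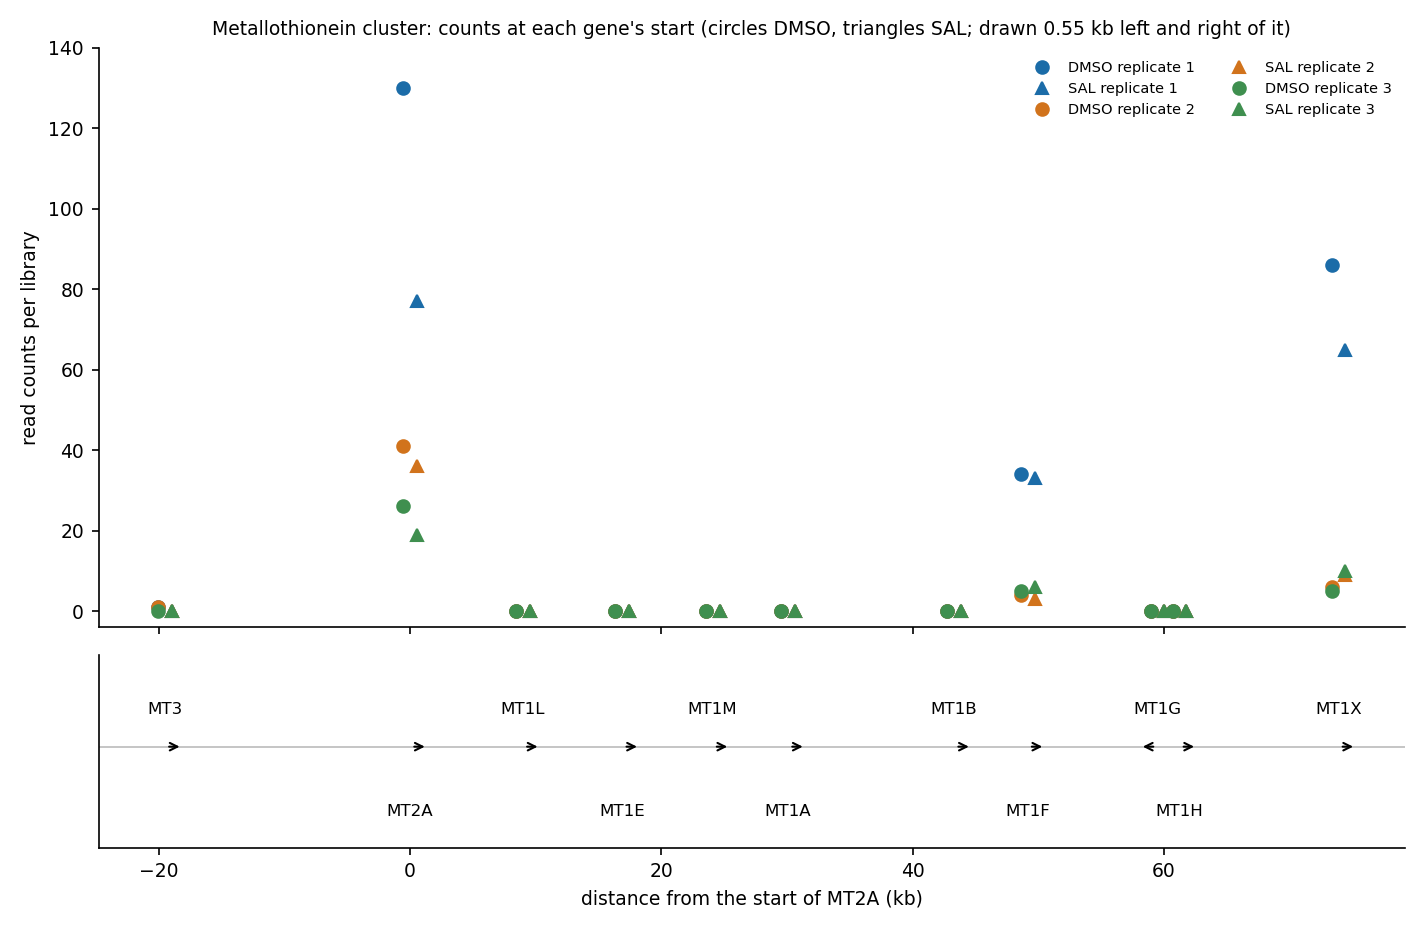
Counts of the 11 metallothionein genes in each library (top, circles DMSO and triangles SAL, colored by replicate number) over a map of the gene starts and their direction, by distance in kb from the start of MT2A (bottom). Counts stand above 0 only at MT2A, MT1F, MT1X and, with at most 1, MT3, and the highest of each of the first 3 are the libraries of replicate 1.

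MTF1 itself did not follow the metallothioneins across libraries. It was at 22.1, 65.6 and 58.8 CPM in DMSO and 21.5, 73.6 and 66.3 in SAL, lowest in replicate 1, where the metallothioneins were highest. Its log2 fold change was 0.11 (95% interval -0.11 to 0.34, adjusted p = 0.498).

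For most members the libraries differed more between replicate numbers than between treatments. In 16 of the 20 tested members, the 3 replicate numbers stood in the same order in DMSO and in SAL. Replicate 1 was lowest in both conditions for 7 members, such as SLC39A14, SLC39A1, SLC39A7 and MTF1, and highest in both for 9, such as MT2A, SLC39A4 and SLC30A9. Within genes, the replicate number took a median of 87.2% of the sum of squares of log2 CPM and the treatment 8.86%, next to 85.4% and 5.88% over all genes. Treatment took the larger share for SLC39A10 (56.2%) and SLC30A10 (71.7%) alone. The replicate number has 3 levels and the treatment 2, and the shares are not scaled for this. For SLC39A8 (49% for treatment, 50.3% for replicate number) and SLC30A7 (47.1% and 51.3%) they were close. Replicate 1 also had the highest rRNA share, 27.7% and 27.8% of gene counts against 11.9% to 22% in the other libraries, and the part of this difference in the member levels was not tested. Without the replicate block, none of the 20 members was called by edgeR, with 1 at an unadjusted p under 0.05 (SLC30A10), and 0.125% of all genes were.

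Other genes of metal and citrate handling were read from lists written from general knowledge. Earlier results of these data were known when the lists were written, so their shares of called genes are descriptive only. Of 14 tested genes of copper and other metal handling, 3 were called higher and none lower, with a median of 0.02. Their share of 21.4% was near the 20.8% called over all genes. These were ATP7B, a copper exporter, with a log2 fold change of 0.75 (adjusted p = 0.00441), SLC31A2, a copper transporter of endosomes, with 1.25 (adjusted p = 0.0381) on 5 to 40 counts per library, and CBWD1, of a family of zinc chaperones, with 0.75 (adjusted p = 0.00042). The copper importer SLC31A1 had a value of -0.15, the copper and zinc superoxide dismutase SOD1 0.03 and the metal importer SLC11A2 0.05, none past the threshold. CBWD1 has near-identical copies and its counts are uncertain. CBWD2, of the same family, had 0.02 (adjusted p = 0.958).

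Among 6 tested genes known to respond to metals or metal stress, 3 were called higher and none lower, with a median of 0.41. This is 50% called, against 20.8% over all genes, and 6 genes fix such a share poorly. NDRG1, a stress and differentiation gene that is also androgen-induced, was at 39.8 ± 27.9 CPM in DMSO and 862 ± 557 with androgen, a log2 fold change of 4.45 (adjusted p = 2.64e-12). HMOX1, the heme oxygenase, rose by 0.94 (adjusted p = 0.0101), with 0.17, 1.21 and 1.38 in the pairs, and the selenoprotein gene SEPW1 by 0.48 (adjusted p = 0.0482). GCLC of glutathione synthesis and TXNRD1, both known as MTF1 or stress targets, had 0.02 and -0.02.

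Zinc is known to limit the use of citrate in prostate epithelium. Of 8 tested citrate genes, 3 were called higher and none lower, with a median of 0.17. This is 37.5% called, against 20.8% over all genes. ANKH, which exports citrate and pyrophosphate, rose from 101 ± 48.3 to 232 ± 110 CPM (SD, n = 3), by 1.22 on the log2 scale (adjusted p = 2.58e-07). ACLY, which splits citrate for lipid synthesis, rose by 0.57 (adjusted p = 0.00028), and GOT2, the mitochondrial aspartate aminotransferase, by 0.35 (adjusted p = 0.0136). The citrate synthase gene CS had -0.17 (adjusted p = 0.226). Over these lists, 9 of 28 tested genes were called higher by edgeR and 0 lower, where 11.5% and 9.37% of all genes were. The lists were not drawn up independently of these data, so no conclusion is drawn from the difference in shares. With DESeq2, 7 were higher and 0 lower, where 13.3% of all genes were called in either direction, and 1 gene, TMEM163, was lower at an unadjusted p under 0.05 in edgeR and 0 in DESeq2.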

How the data were processed

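Per the labels and the methods of the study, the authors aligned only read 1 of the trimmed fragments with TopHat2 2.1.0 (build hg19). Per gene symbol of gencode v19, HTSeq 0.11.2 then tallied reads ignoring strand and leaving out those with several alignments. The deposited values are these raw counts. Lines of htseq-count tallies were left out.

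Here 523 rRNA gene symbols were removed, genes with low counts were dropped with filterByExpr, and 16835 genes were fitted in edgeR 4.0.16 (R 4.3.3) with TMM normalization, the replicate number as a block (the study used a paired test), robust quasi-likelihood estimation and Benjamini-Hochberg adjustment over all genes. CPM are counts over the TMM-scaled library size, and pair changes use a prior count of 2. The SE was taken as |log2 fold change| divided by √F. The fit was tested on simulated data. Libraries were paired by the number in the labels. The deviations correlated at 0.74 or more in each pair, and libraries of different numbers were not compared in this way.

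Positions, exon lengths and overlaps come from GRCh37 with GENCODE v44 lifted to it, newer than the authors' annotation. The members, lists and tests were chosen with earlier results of these data known. One gene of the citrate list is counted but not reported here. Every member is named, and of the other lists the genes past the threshold and the highest in level, plus a few genes chosen after their values were seen. Alternatives were DESeq2 1.42.0, its size factors, no block, other filters, rRNA kept, mitochondrial genes removed, no robust estimation, metallothioneins summed and each replicate number left out. Only 6 libraries limit the precision.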

Additional observations from a re-analysis of the deposited data

How the results depend on the processing

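The direction of every called member held in all alternatives, and SLC39A10 and SLC30A10 passed the threshold in each one that kept the block and tested them. Dropping the replicate block changed most. All genes called went from 1931 higher and 1577 lower to 18 and 3, members from 5 and 3 to 0 and 0, and the other metal and citrate genes from 9 higher to 0, with member values between -2.11 and 1.03. At an unadjusted p under 0.05 in edgeR without the block, these were 416 and 238 genes, 0 and 1 members, and 2 and 1 of the other genes. With DESeq2 and the replicate block, 950 genes were lower. Leaving out 1 replicate number gave 750 to 2443 genes higher and 483 to 1955 lower, 1 to 5 members higher and 1 to 3 lower, and 4 to 10 of the other genes higher and 0 to 1 lower. The fewest calls came without replicate 3, when only SLC39A10 and SLC30A10 were called among the members. The cause was not tested. The alternatives for the other metal and citrate genes were chosen after seeing the data, and each left-out replicate removed both libraries of its pair.

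Values near 0 changed sign without a call. SLC39A13 had -0.04 with DESeq2, -0.01 with DESeq2 size factors and -0.20 to 0.07 over the replicates left out. SLC39A4 had -0.01 without the block and -0.05 to 0.17 over the replicates left out, and SLC30A9 had 0.00 to 0.09. MT2A passed the threshold with at least 10 counts required in every library (adjusted p = 0.0487), and its adjusted p ranged from 0.0487 to 0.27 with the block. The other settings left the counts of calls within 1.5 times.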
